A study of Mus musculus with 6 samples.

Results

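Genes for matrix glycoproteins, proteoglycans and elastic fibres were followed in the tumour stroma of Pdia4-/- (KO) and wild-type (WT) mice. There were 39 genes, chosen by symbol, and 36 of them had at least 1 probe set that the array annotation assigns to no other gene. These 36 genes had 82 probe sets, out of 45101 on the array. The symbols Spp1, Fbn1 and Efemp2 had no such probe set in the annotation used and were not analysed here. A probe set was tested where the array software called it Present on at least 3 of the 6 arrays, and 31 of the 39 genes passed, out of 11357 genes tested in the series. Each gene is represented by its brightest tested probe set. Of the 31 genes, 26 were Present on all 6 arrays and 5 on 4, and 0 were Present in only 1 genotype, so that no gene entered through a single group. Fmod, Lama2, Lama4, Mfap2 and Mfap4 were Absent on every array on each of their probe sets.

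The KO group held 3 Affymetrix Mouse430_2 arrays from male Pdia4-/- mice and the WT group 3 arrays from male WT mice. All were B6 mice sampled 4 weeks after tumour cells were injected under the skin. The growth protocol calls the cells LLC, Lewis lung carcinoma, but the design text calls the tumour GK1, and this was not settled. Age, pooling of animals and the genotype of the tumour cells are not given in the labels. Pdia4 belongs to the disulphide isomerases, which help secreted proteins rich in disulphide bonds, many matrix proteins among them, to fold in the endoplasmic reticulum.

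The matrix between cells is built from collagens and from the non-collagen proteins described here. Matricellular proteins signal to cells more than they bear load. Small leucine-rich proteoglycans coat collagen fibrils and set their thickness, and elastic fibres consist of an elastin core on a scaffold of microfibrils, which also stores latent TGF-beta. Basement membranes are sheets of laminin and collagen IV joined by nidogens and perlecan. In tumours much of this matrix is made by fibroblasts, with shares from endothelial cells, macrophages and the carcinoma cells themselves.

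Promoter windows of 250 bases before the annotated start are shown for 3 basement membrane genes that were lower together in KO stroma and for Postn, which was higher. They are RefSeq sequences of the plus strand of GRCm38.p6, at chr12:31265043-31265292 for Lamb1, chr13:13437352-13437601 for Nid1, chr4:137468553-137468802 for Hspg2 and chr3:54359017-54359266 for Postn. Capitals mark CAGAC, the Smad core motif, on either strand, which had 1 match in the Lamb1 and Postn windows and 0 in the other two.
Lamb1: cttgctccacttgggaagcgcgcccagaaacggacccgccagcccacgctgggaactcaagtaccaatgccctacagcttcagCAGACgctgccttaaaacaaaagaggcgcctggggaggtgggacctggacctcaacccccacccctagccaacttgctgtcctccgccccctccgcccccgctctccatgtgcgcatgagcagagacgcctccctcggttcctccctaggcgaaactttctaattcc
Nid1: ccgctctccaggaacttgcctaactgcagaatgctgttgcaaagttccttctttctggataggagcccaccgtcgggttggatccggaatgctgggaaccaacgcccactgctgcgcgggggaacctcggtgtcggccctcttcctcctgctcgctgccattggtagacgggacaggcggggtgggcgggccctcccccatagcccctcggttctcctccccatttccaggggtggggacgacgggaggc
Hspg2: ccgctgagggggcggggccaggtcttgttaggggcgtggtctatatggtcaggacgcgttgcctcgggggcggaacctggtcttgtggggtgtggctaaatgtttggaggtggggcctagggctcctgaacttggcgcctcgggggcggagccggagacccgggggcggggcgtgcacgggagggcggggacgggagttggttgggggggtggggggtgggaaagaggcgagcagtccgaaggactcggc
Postn: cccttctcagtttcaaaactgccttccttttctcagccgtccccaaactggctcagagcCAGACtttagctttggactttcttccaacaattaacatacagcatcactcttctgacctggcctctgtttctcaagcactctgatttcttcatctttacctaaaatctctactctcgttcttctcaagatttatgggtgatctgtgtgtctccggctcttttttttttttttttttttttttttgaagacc
The 3 basement membrane windows shown had 14, 16 and 20 CpG pairs and 62.0%, 64.4% and 70.0% G or C for Lamb1, Nid1 and Hspg2. That of Lama2, a basement membrane gene Absent on every array, had 0 CpG pairs and 47.2% G or C. The Postn window had 3 CpG pairs and 40.4% G or C. Of other genes lower at an unadjusted p under 0.05 with a window, Ltbp1 had 12 CpG pairs, Dpt 3 and Ltbp3 2. The median was 7 CpG pairs and 54% G or C over the matrix gene windows. Over 27025 gene windows it was 6 CpG pairs and 52% G or C. Windows were at hand for 27 of the 39 genes, and 14 of these (51.9%) held CAGAC, against 42.1% of all windows. The AP-1 motif TGANTCA stood in 2 of the 27 (7.41%), those of Efemp1 and Ecm1, against 6.87% of all. Both strands were searched, and the motifs can share their letters CA. A match describes the sequence only.

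The targeted gene was lower in KO stroma on its tested probe set but still Present on every array. Pdia4 read 2324, 1521 and 1402 on KO replicates 1, 2 and 3, against 3942, 2766 and 4104 in WT (log2 difference -1.06, SE 0.28, limma adjusted p = 0.161). A further Pdia4 probe set was dim, Present on 1 array and not tested, at 36.9 ± 25.0 in KO and 28.3 ± 14.4 in WT (SD, n = 3 each). Between 47.0% and 49.2% of probe sets were Present per array. KO replicate 3 lay far from the other 5 arrays on the leading component (50.6% of variance), and its file carries a batch number of its own. A within-batch value cannot be had from 1 array, so results that rest on KO replicate 3 are also given without it. Among the 31 genes it lay farthest from WT of the 3 KO arrays, in the direction of the difference, in 22 (71.0%), against 65.8% of all tested genes. Of the fibroblast markers 8 of 8 were tested, as were 6 of 6 macrophage markers, and their presence does not tell stroma from whole tumour. Krt8 and Krt18, keratins of simple epithelium, were Present on all arrays, while Epcam, an epithelial adhesion gene, was Absent on all.

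Of the 31 matrix genes 10 were higher and 21 lower in KO stroma, and the median log2 difference was -0.39, against -0.10 over all tested genes. By limma 0 passed an adjusted p under 0.05, where 0.0352% of tested genes did so, 4 of 11357, and 0.0272% of tested probe sets, 6 of 22063. At p under 0.05 before adjustment there were 4 genes higher in KO (12.9%), against 8.88% of all tested genes, and 10 lower (32.3%), against 11.8% of all. The groups did not overlap for 5 genes higher in KO (16.1%), against 12.7% of all, and for 13 lower in KO (41.9%), against 20.5%. The 4 genes were Thbs1, Postn, Bgn and Eln. The 10 were Prg4, Dpt, Fn1, Dcn, Ltbp1, Ltbp3, Hspg2, Lamb1, Lamc1 and Nid1. Without KO replicate 3 the counts were 2 higher and 10 lower (background 6.89% and 8.72%). Leaving out WT replicate 3 also gave 2 higher. No difference below passed over all probe sets, so directions are given as values. These are whole-tissue RNA levels, in which fewer cells of a type and less RNA per cell cannot be told apart.

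**Figure D1:**
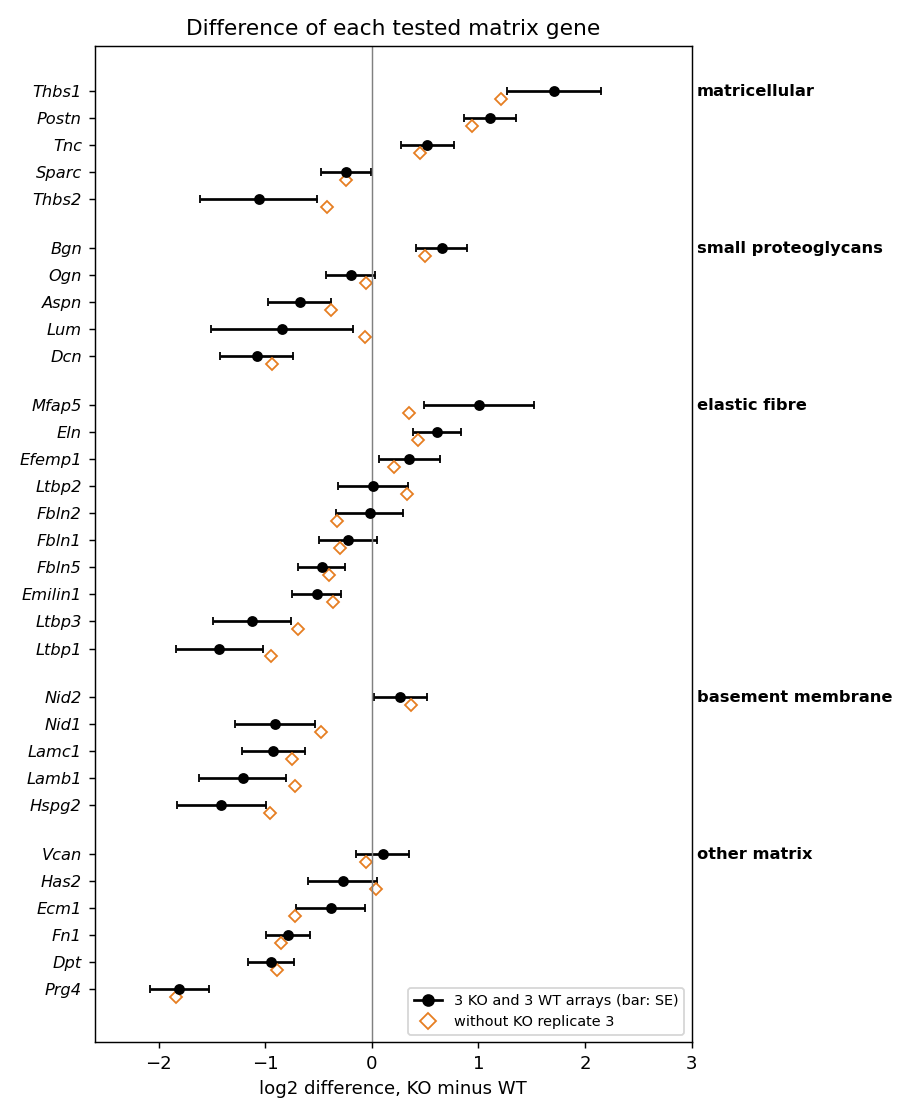
Log2 difference, KO minus WT, of each tested matrix gene by class (black circles with SE bars, 3 KO and 3 WT arrays) and without KO replicate 3 (open orange diamonds). Thbs1 has the highest value, 1.71, and Prg4 the lowest, -1.80. The values of Tnc, Eln, Efemp1, Ltbp2, Nid2 and Vcan turn negative when arrays are scaled on the 5' β-actin control, and those of Fbln2 and Ltbp2 also turn with other scalings.

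Among matricellular genes, thrombospondin 1 and periostin were higher in KO stroma, and tenascin C, thrombospondin 2 and Sparc overlapped between the groups. At an unadjusted p under 0.05, 2 of 5 tested genes were higher (40%, against 8.88% of all tested genes) and 0 lower (against 11.8%). The class median was 0.52, which turned to -0.13 under scaling on the 5' β-actin control. Thbs1, a trimeric glycoprotein of platelets, macrophages and fibroblasts that activates latent TGF-beta and curbs angiogenesis, read 8395, 9375 and 25255 on KO replicates 1, 2 and 3, against 3258, 5189 and 3344 in WT. Every KO array lay above every WT array, and KO replicate 3 was the highest of all. The log2 difference was 1.71 (SE 0.44, limma adjusted p = 0.159) and 1.21 without KO replicate 3. The other tested Thbs1 probe set read 1079, 864 and 4239 in KO and 576, 706 and 624 in WT, with a log2 difference of 1.32 that was 0.61 without KO replicate 3.

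Postn encodes periostin, which fibroblasts deposit in wounds and tumours and which binds integrins. Its signals were 760, 642 and 984 on the KO arrays, against 401, 392.4 and 304.5 on the WT arrays. The groups did not overlap, and the KO mean of 795 ± 174 stood beside a WT mean of 366 ± 53.3 (SD, n = 3 each), with a log2 difference of 1.11 (SE 0.24, limma adjusted p = 0.145).

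Tnc, tenascin C, a hexameric glycoprotein of wound and tumour matrix, overlapped between the groups. It had 501, 449 and 548 in KO and 344, 451 and 269 in WT, a log2 difference of 0.52 (SE 0.25) that turned to -0.13 under scaling on the 5' β-actin control. Thbs2, thrombospondin 2, an angiogenesis inhibitor of fibroblasts, read 1094, 1144 and 295 in KO and 1099, 2184 and 1398 in WT. Its log2 difference of -1.06 (SE 0.55) was -0.42 without KO replicate 3, the array with the low value. Sparc, a calcium-binding glycoprotein that binds collagen, had 4057 ± 431 in KO and 4869 ± 1110 in WT (SD, n = 3 each) and a log2 difference of -0.24 (SE 0.24). Further Thbs2 probe sets had -0.84 and -0.46, which were -0.36 and 0.065 without that array.

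Some platelet, macrophage and neutrophil markers were higher in KO stroma too. Of 3 tested platelet markers 1 was higher at an unadjusted p under 0.05 (33.3%, against 8.88% of all tested genes). This was Ppbp, a chemokine of platelet granules, at 9135, 10195 and 17713 in KO and 3092, 4442 and 2824 in WT. The summed platelet signal was 27918 to 48197 in KO and 13747 to 23180 in WT, and Gp9, a platelet receptor subunit, was Absent on all arrays. The other tested platelet markers overlapped between the groups, with 0.60 for Pf4, a platelet chemokine, and -0.36 for Itga2b, a platelet integrin chain. Of 6 macrophage markers 3 were higher at that p (50%, against 8.88%), Cd68, Itgam and Aif1, and 0 were Absent on all arrays. The summed signal of the 6 overlapped, at 56535 to 86069 in KO and 43140 to 67261 in WT. Csf1r, the brightest of them, overlapped between the groups, with 0.20. Of 4 tested neutrophil markers 2 were higher before adjustment (50%, against 8.88%), and 0 were Absent on all arrays. The 2 were Csf3r, the receptor for granulocyte growth factor, with 1.42 and Mmp8, a neutrophil collagenase, with 1.38. The summed neutrophil signal overlapped, at 136203 to 184465 in KO and 70017 to 179628 in WT. Most of it was S100a8 and S100a9, which overlapped between the groups, with 0.33 and 0.45. The part of these cells in the Thbs1 result was not tested.

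**Figure D2:**
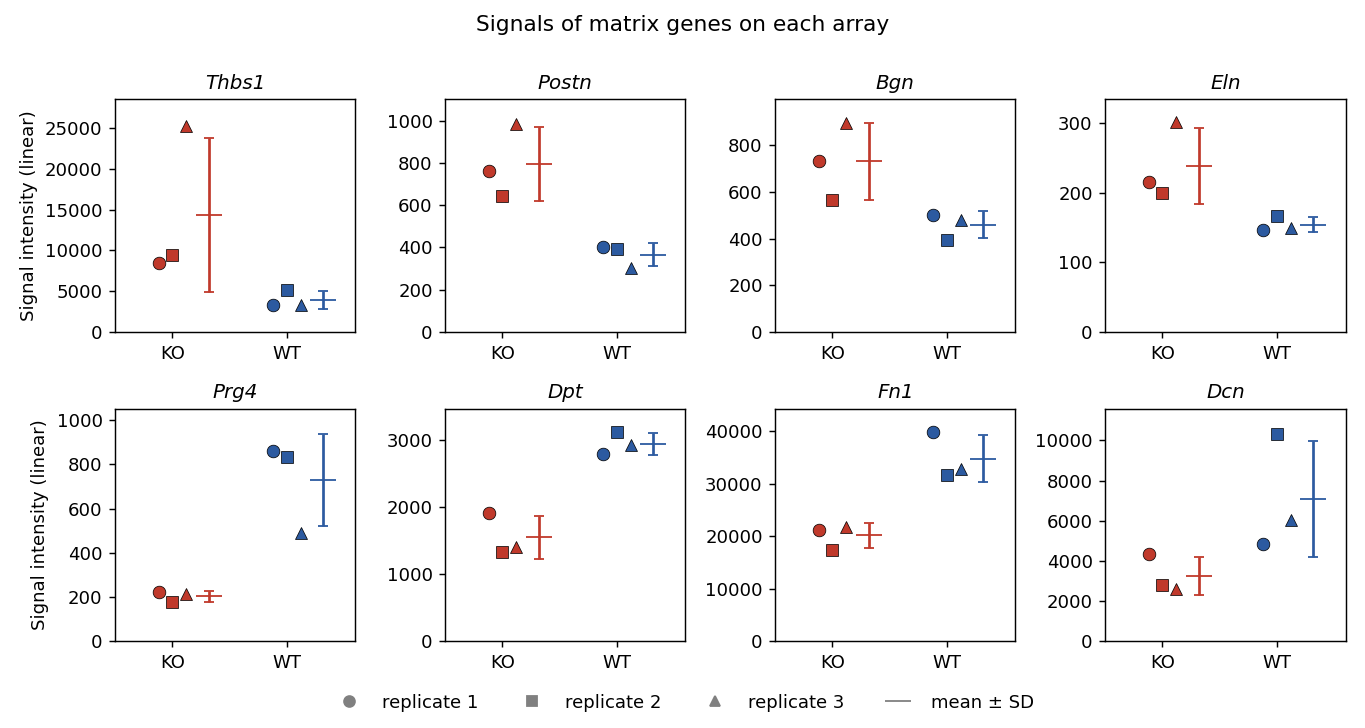
Signal intensity on each array (symbols give the replicate) with the group mean and SD for 8 matrix genes, KO left of WT. The upper row shows genes with every KO array above every WT array, Thbs1 reaching 25255 on KO replicate 3, and the lower row genes with every KO array below every WT array. On the scale of the 5' β-actin control Eln turns to -0.045 on the log2 scale.

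The small leucine-rich proteoglycans were split, with decorin and asporin lower in KO stroma and biglycan higher. Before adjustment, 1 of 5 tested genes was higher (20%, against 8.88% of all tested genes) and 1 lower (20%, against 11.8%) at p under 0.05. The class median was -0.68. It was -0.064 without KO replicate 3, with 0 genes higher and 1 lower. Dcn encodes decorin, which binds collagen fibrils and TGF-beta. It read 4356, 2814 and 2605 on KO replicates 1, 2 and 3, against 4822, 10322 and 6047 in WT. The groups did not overlap, although KO replicate 1 and WT replicate 1 lay close (log2 difference -1.08, SE 0.34, limma adjusted p = 0.182).

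Bgn, biglycan, the nearest relative of decorin and a ligand of Toll-like receptors when released, went the other way. Its signals were 734, 566 and 896 in KO and 503, 393 and 481 in WT, so each KO array lay above each WT array (log2 difference 0.66, SE 0.24, limma adjusted p = 0.210). The difference was 0.50 without KO replicate 3. Its further probe sets had 0.83 and -0.04. Scaling on the 5' β-actin control left the first at 0.00097.

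Lum, lumican, which shapes collagen fibrils, overlapped widely, at 4940, 4439 and 930 in KO and 2997, 7826 and 5002 in WT. Its log2 difference of -0.84 (SE 0.67) was -0.064 without KO replicate 3, whose signal was the lowest. Aspn, asporin, an inhibitor of TGF-beta signalling, had 210, 153 and 96.5 in KO, below the 239, 237 and 223 of WT, with a log2 difference of -0.68 (SE 0.30) and -0.38 without KO replicate 3. Its other probe set had 0.09, so the probe sets of Aspn disagreed. Ogn, osteoglycin or mimecan, read 272 ± 57.3 in KO and 309 ± 36.3 in WT (SD, n = 3 each), a log2 difference of -0.20 (SE 0.23).

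Elastic fibre genes went both ways. The latent TGF-beta binding proteins Ltbp1 and Ltbp3, which hold the growth factor on microfibrils, were lower in KO stroma, and elastin itself was higher on the deposited signals but at -0.045 on the 5' β-actin scale. Before adjustment, 1 of 10 tested genes was higher at p under 0.05 (10%, against 8.88% of all tested genes) and 2 were lower (20%, against 11.8%). The class median was -0.12, against -0.10 over all genes. Without KO replicate 3 there were 0 higher and 2 lower, and the median was -0.32, against -0.053 over all genes. Ltbp1 read 796, 798 and 289 on the KO arrays, against 1371, 1797 and 1463 in WT. There was no overlap, with a log2 difference of -1.43 (SE 0.41, limma adjusted p = 0.167), which was -0.94 without KO replicate 3. Ltbp3 read 3054, 2578 and 1147 in KO and 4623, 4801 and 4202 in WT, again with no overlap. Its log2 difference was -1.12 (SE 0.37, limma adjusted p = 0.187), and -0.69 without KO replicate 3. A further Ltbp1 probe set had -1.18, and the further Ltbp3 probe sets had -1.36 and -1.22, which were -0.92 and -0.69 without KO replicate 3. Ltbp2, which does not bind latent TGF-beta, had 115 ± 45.9 in KO and 109 ± 17.6 in WT (SD, n = 3 each), a log2 difference of 0.01 (SE 0.33) that turned to -0.10 with quantile normalization and -0.64 on the 5' β-actin scale.

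Eln, tropoelastin, the core of the fibre, had 216, 199 and 302 in KO and 147, 167 and 150 in WT. The groups did not overlap, with a log2 difference of 0.61 (SE 0.23, limma adjusted p = 0.213), which was 0.43 without KO replicate 3 and -0.045 on the 5' β-actin scale. Mfap5, a microfibril glycoprotein, had 104, 105 and 408 in KO and 91.4, 82.0 and 73.5 in WT. KO replicate 3 alone was far above the rest, and the log2 difference of 1.01 (SE 0.52) was 0.35 without it.

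Emilin1, a glycoprotein at the surface of elastic fibres, read 665, 689 and 489 in KO, below the 782, 1010 and 831 of WT (log2 difference -0.52, SE 0.23). Fbln5, fibulin 5, which carries elastin to microfibrils, had 106, 136 and 105 in KO and 147, 188 and 145 in WT (log2 difference -0.47, SE 0.22). Both therefore lay lower on every KO array, without passing at an unadjusted p under 0.05. The remaining genes overlapped between the groups. Fbln1, a fibulin of microfibrils and basement membranes, had -0.22. Fbln2, a fibulin that binds fibronectin and perlecan, had -0.02, which turned to 0.064 with 75th percentile scaling and 0.026 with quantile normalization. Efemp1, fibulin 3, had 0.35, which turned to -0.30 on the 5' β-actin scale.

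Most basement membrane genes were lower in KO stroma. Laminin β1, laminin γ1, nidogen 1 and perlecan were lower on every KO array, and nidogen 2 was not. Of 5 tested genes 4 were lower at an unadjusted p under 0.05 (80%, against 11.8% of all tested genes) and 0 higher, and the median was -0.92, or -0.72 without KO replicate 3, where 3 genes were lower at that p. The median was the lowest of the 5 classes with all arrays, but without KO replicate 3 the other matrix genes were lower, at -0.78. Hspg2, perlecan, the heparan sulphate proteoglycan that binds growth factors in the sheet, read 1447, 966 and 460 on KO replicates 1, 2 and 3, against 2550, 2570 and 1839 in WT. Its log2 difference was -1.41 (SE 0.41, limma adjusted p = 0.171), and -0.96 without KO replicate 3. The other tested Hspg2 probe set overlapped between the groups, at 730, 648.5 and 794 in KO and 828, 954 and 671 in WT, with -0.17.

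Lamb1, the β1 chain found in most laminins, had 8303, 6368 and 2637 in KO and 12643, 12490.5 and 10970 in WT. Again no KO array reached the WT arrays, and the log2 difference of -1.21 (SE 0.41, limma adjusted p = 0.194) was -0.72 without KO replicate 3. Lamc1, the γ1 chain that joins it, had 1062, 1032 and 726.5 in KO and 1410, 2569 and 1497 in WT (log2 difference -0.92, SE 0.30, limma adjusted p = 0.185). Nid1, nidogen 1, which links laminin to collagen IV, had 11568, 8619 and 4037 in KO and 14069, 14163 and 13338 in WT. Its log2 difference was -0.91 (SE 0.38, limma adjusted p = 0.240), and -0.47 without KO replicate 3, the lowest of the KO arrays for each of these 4 genes.

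Nid2, nidogen 2, the second linker, had 135, 122 and 103.5 in KO and 78.9, 131 and 94.4 in WT, which overlap, with a log2 difference of 0.27 (SE 0.25) that turned to -0.39 on the 5' β-actin scale.

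Keratins and endothelial markers also differed. Krt8 read 3307, 2451 and 850 in KO, against 7601, 6475 and 5591 in WT, and Krt18 read 2616.5, 2450 and 798, against 7119, 7637 and 5423 in WT. KO replicate 3 was thus the lowest array for both, as for the 4 basement membrane genes. That array was also the farthest KO array from WT, in the direction of the difference, for 65.8% of all tested genes. In the epithelial list 2 of 3 tested markers were lower at an unadjusted p under 0.05 (66.7%, against 11.8% of all tested genes). The third, Cdh1, the epithelial cadherin, overlapped between the groups with 0.33. The summed signal of the list was 2200 to 6377 in KO and 11338 to 15168 in WT. The endothelial list went the other way, with 3 of 6 tested markers higher at that p (50%, against 8.88% of all tested genes). Without KO replicate 3 there were 2 (background 6.89%). Pecam1, 1 of the 3, was Present on 3 KO and 0 WT arrays. It passed the filter only through the group where it was higher, so its direction carries no weight here. Of the endothelial markers 0 were Absent on all arrays, and the summed signal was 1294 to 1713 in KO and 745 to 992 in WT. Of 4 tested pericyte markers 1 was lower at that p (25%, against 11.8% of all tested genes). This was Rgs5, a G protein regulator of pericytes, at 260, 193 and 233 in KO and 551, 583 and 453 in WT. Notch3, a receptor of mural cells, had -0.37 without overlap, Pdgfrb, a pericyte growth factor receptor, 0.76 and Kcnj8, a potassium channel, 0.59. The summed pericyte signal was 681 to 933 in KO and 804 to 998 in WT, and Cspg4 was Absent on all arrays. The part of epithelial, endothelial or pericyte cells in the basement membrane values was not tested.

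**Figure D3:**
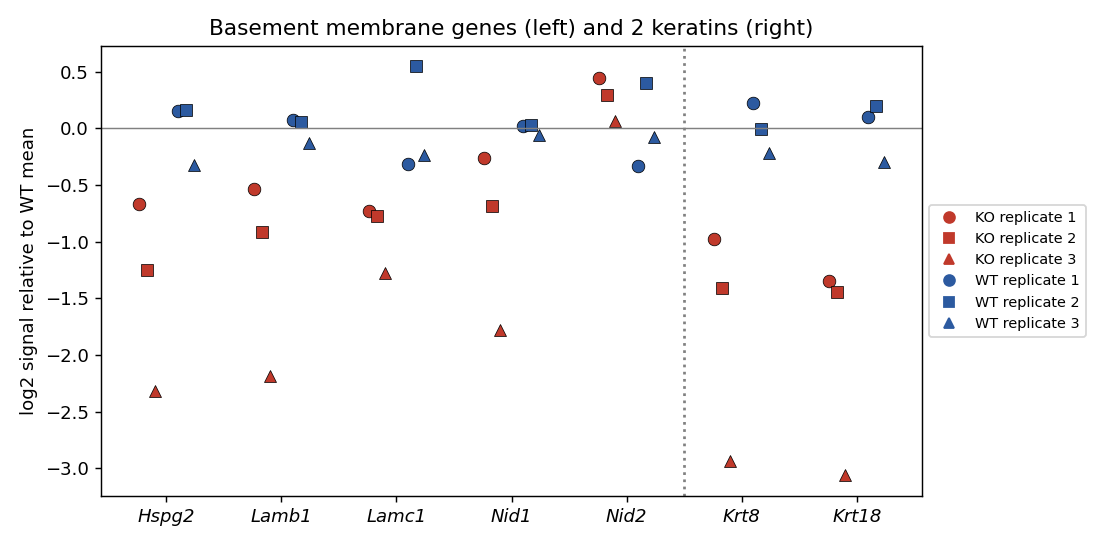
Log2 signal relative to the mean of the WT arrays for 5 basement membrane genes and, right of the dotted line, Krt8 and Krt18, on each array with KO left of WT. KO replicate 3 is lowest for Hspg2, Lamb1, Lamc1, Nid1 and both keratins, and is the farthest KO array from WT for 65.8% of all tested genes. Nid2 overlaps between the groups, with a log2 difference of 0.27 that turns to -0.39 on the 5' β-actin scale. Cdh1, the third tested epithelial marker, is not shown and had 0.33.

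The other matrix genes held the gene with the smallest p of the 31. Prg4 encodes lubricin, a mucin-like proteoglycan known for lubricating joints. It read 221, 176.5 and 211.5 on the KO arrays, against 861, 834.5 and 489 in WT. Every KO array was below the lowest WT array by more than the spread within KO, and the log2 difference was -1.80 (SE 0.27, limma adjusted p = 0.127), with -1.84 when KO replicate 3 was left out. Dpt, dermatopontin, a small protein that binds decorin and speeds collagen fibril assembly, had 1912, 1332 and 1409 in KO and 2793, 3121 and 2933 in WT. Its log2 difference was -0.94 (SE 0.22, limma adjusted p = 0.147), and -0.88 without KO replicate 3. Fn1, fibronectin, the adhesive glycoprotein on which fibroblasts assemble other matrix, had 21151, 17452 and 21816 in KO and 39858, 31636 and 32730 in WT. No arrays overlapped, the log2 difference was -0.79 (SE 0.21, limma adjusted p = 0.162) and -0.85 without KO replicate 3, and a second probe set had -1.06. Prg4, Dpt and Fn1 thus differed by about as much with that array as without it.

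Ecm1, a secreted glycoprotein of skin and vessel matrix, overlapped at 3174, 3105 and 6279 in KO and 5770, 5830 and 4100 in WT (log2 difference -0.39, SE 0.33). Without KO replicate 3, the high KO array, it was -0.72. Has2, a hyaluronan synthase, had a low signal, 45.3 ± 16.2 in KO and 53.0 ± 11.7 in WT (SD, n = 3 each), and a log2 difference of -0.27 (SE 0.32). Vcan, versican, a large proteoglycan that binds hyaluronan, had 7896, 5602 and 9125 in KO and 7970, 6568 and 6233 in WT, a log2 difference of 0.10 (SE 0.25) that turned to -0.55 on the 5' β-actin scale.

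Fibroblast markers went both ways. Of 8 tested, 2 were higher (25%, against 8.88% of all tested genes) and 3 lower (37.5%, against 11.8%) at an unadjusted p under 0.05. Without KO replicate 3 these were 3 and 1. Of the 8, 0 were Absent on all arrays, and their summed signal was 36831 to 50831 in KO and 54313 to 64203 in WT. Most of that sum was Col3a1, a collagen chain, at 39391, 29559 and 26383 in KO and 49992, 42094 and 48751.5 in WT. Col1a1, another collagen chain, was higher without overlap, with 1.70, or 1.31 without KO replicate 3. Pdgfra, a growth factor receptor of fibroblasts, had 817 ± 258 in KO and 1737 ± 198 in WT (SD, n = 3 each), a log2 difference of -1.13, and Thy1, a fibroblast surface protein, had 0.74. T cell markers were higher in 4 of 4 tested, where 4783 of 11357 tested genes were higher. Their summed signal was 4176 to 4842 in KO and 909 to 2207 in WT. The part of fibroblast and T cell number in the matrix values was not tested.

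**Figure D4:**
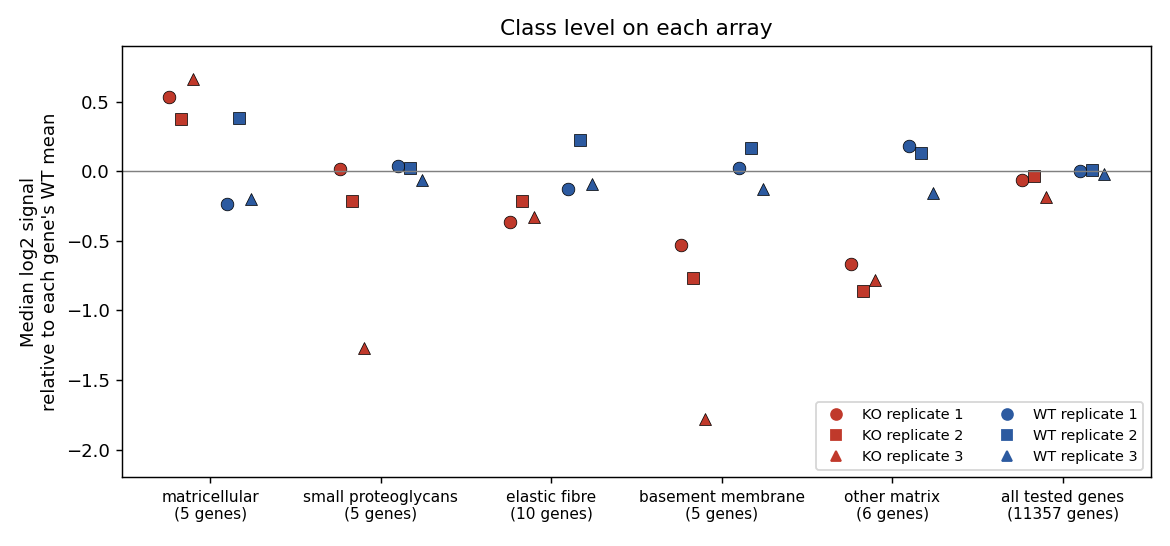
Median over the tested genes of each class of the log2 signal relative to the gene's WT mean, on each array, KO left of WT. For basement membrane genes KO replicate 3 stands at -1.78 and the other KO arrays at -0.53 and -0.77, whereas in the other matrix genes the 3 KO arrays lie between -0.86 and -0.66. The matricellular median, 0.52 as a difference, turns to -0.13 on the 5' β-actin scale.

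Probe sets of a gene can read different transcript ends or splice forms. Of 13 genes with over 1 tested probe set, 10 had the same sign on all and 3, Aspn, Bgn and Vcan, did not. The 5 Vcan probe sets ran from -0.32 to 1.10, and the one at 1.10 was dim, with 35.1, 39.9 and 31.0 in KO and 19.8, 12.4 and 18.1 in WT. Which versican forms they read was not worked out. Lamb1 had -1.41 and -0.28 on its further probe sets, which were -0.90 and 0.10 without KO replicate 3, the last of them dim at 130 ± 83.0 in KO and 142 ± 35.3 in WT (SD, n = 3 each).

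**Figure D5:**
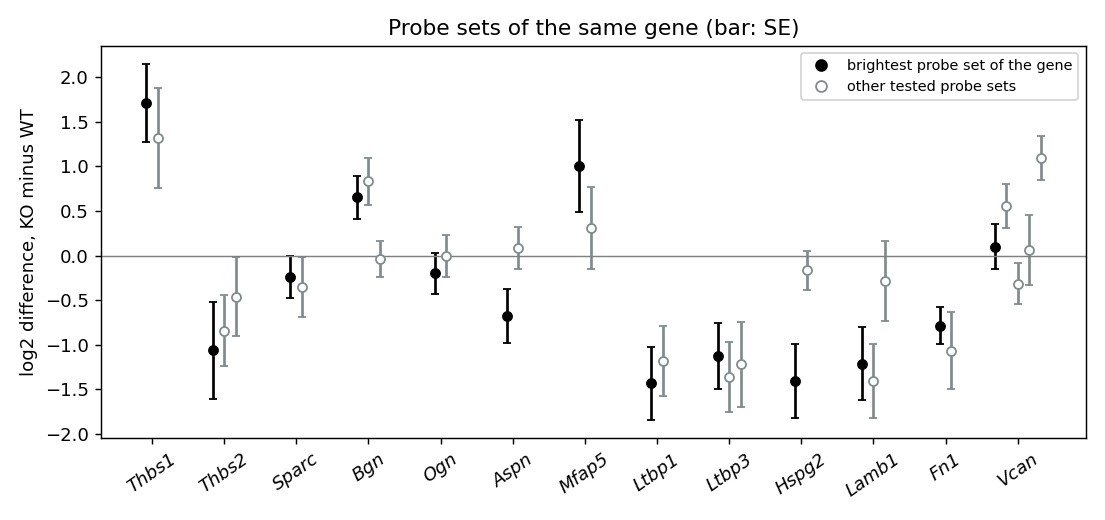
Log2 difference, KO minus WT, with SE for each tested probe set of the 13 matrix genes that had over 1, the brightest in black. Those of Thbs1, Ltbp1 and Ltbp3 lie close together, while those of Hspg2 stand at -1.41 and -0.17, and Aspn, Bgn and Vcan cross 0.

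Other genes of matrix assembly were read from lists of 81 genes, of which 51 were tested. By limma 0 passed an adjusted p under 0.05, and at an unadjusted p under 0.05 there were 5 higher (9.80%, against 8.88% of all tested genes) and 11 lower (21.6%, against 11.8%). Leaving out KO replicate 3 gave 2 higher and 10 lower. Of 7 further basement membrane genes tested, 6 had a lower and 1 a higher level in KO, with a median of -0.85, and 5 were lower and 0 higher at that p. Collagen IV chains Col4a1 and Col4a2, the network of the sheet, had log2 differences of -0.85 and -0.63. Agrn, the proteoglycan agrin, had -1.12, Col18a1, the collagen that yields endostatin, -1.32, and Lama5, the laminin α5 chain, -1.19. Without KO replicate 3 these 5 had -0.73 to -0.51, and all 5 were lower at that p.

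Before adjustment, 3 of 6 tested cross-linking genes were higher (50%, against 8.88% of all tested genes) and 1 lower (16.7%, against 11.8%) at p under 0.05. Without KO replicate 3 there were 1 and 1. The transglutaminases Tgm1 and Tgm2, which bond glutamine to lysine, had 1.58 and 0.83, and Lox, a lysyl oxidase that cross-links elastin and collagen, had 0.77. Tgm2 and Lox overlapped between the groups. Without KO replicate 3 Tgm1 had 1.22, Tgm2 0.66 and Lox 0.55, and of the 3 only Tgm1 stayed at p under 0.05. Loxl3, another lysyl oxidase, had 957 ± 466 in KO and 2123 ± 294 in WT (SD, n = 3 each), a log2 difference of -1.29 that was -0.79 without it. Among 6 further elastic fibre genes, Emilin2 had 0.92, Ltbp4, another latent TGF-beta binding protein, -0.997, and Adamts10, which assists microfibril assembly, -0.66. These were 0.67, -0.62 and -0.59 without KO replicate 3, and Emilin2 alone of the 3 stayed at p under 0.05. Ccn1, a matricellular protein induced by mechanical strain, had 1262 ± 480 in KO and 3326 ± 372 in WT (SD, n = 3 each), a log2 difference of -1.46. It was the 1 of 9 in its list at an unadjusted p under 0.05. Of 12 genes that build glycosaminoglycan chains 1, Chsy1, a chondroitin synthase, was lower, with -0.47, or -0.37 and not at that p without KO replicate 3. In the hyaluronan list, with 5 tested, and in that of further small proteoglycans, with 3, there were 0 at that p.

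The authors' deposited table lists a signed fold for 1554 probe sets, 11 of them of the matrix genes, and all 11 had positive folds. They are not always the brightest probe set of the gene. Those of 5.50 for Prg4, 3.77 for Ltbp1 and 3.72 for Hspg2 were the largest of the 11 in the authors' deposited table. Dcn, Dpt, Fn1, Lamb1, Lamc1, Ltbp3, Nid1 and Thbs2 were the others. All 11 probe sets had a lower mean in KO than in WT, so the direction of that table is WT over KO, opposite to the differences given here. For all 1554 probe sets, the deposited fold divided by the ratio of the WT mean to the KO mean was the same number to within 0.1%, 1.53. The KO mean over the WT mean of the 5' β-actin control probe set was also 1.53. That control read 26590.5, 26931 and 38587 in KO and 12765, 25516 and 21733 in WT. The ratio of its 3' to its 5' probe set, a sign of RNA integrity, was 1.99, 1.51 and 1.52 on KO replicates 1, 2 and 3. On WT replicates 1, 2 and 3 it was 4.26, 1.66 and 2.70. WT replicates 1 and 3 thus lay above every KO array. The part of RNA integrity in the differences between KO and WT was not tested. With the group means divided by that control, 5 of the 31 genes had a higher mean in KO and 26 a lower one, against 11 and 20 on the deposited signals. The smallest size of a negative fold, which marks a higher KO mean, was 2.46 in the authors' deposited table, and on the same scale Thbs1 was 2.38 and Postn 1.42 times higher in KO, and neither is in the table.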

How the data were processed

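RNA of each stroma sample was isolated with Trizol, and biotin-labelled cRNA was hybridised, per the labels' protocols. The deposited array files hold, per probe set, an intensity on a linear scale and a Present or Absent call. An expression report deposited with 1 array states that the Statistical algorithm scaled signals to a target of 500, and the trimmed mean was 500.0 on every array. The deposited value table matched the array files in 270606 of 270606 cells and is not tested separately. The log2 of the deposited intensity was compared by limma (version 3.58.1, R version 4.3.3; two-sided moderated test, genotype as the only term, Benjamini-Hochberg over 22063 probe sets), without pseudocount and without the 64 control probe sets. Folds in the authors' table are signed ratios. Differences are KO minus WT, errors are SD over 3 arrays or SE from limma, and an exact permutation test of 3 against 3 cannot go below p = 0.1. All 82 probe sets matched Entrez IDs of GRCm38.p6, with 0 symbols changed. Members and lists were chosen with earlier results of these data known. Values on every array are given for up to 5 genes per class by smallest p and for genes without overlap and a log2 difference of at least 1 in size, and for further genes chosen after their values were seen. Related genes with p under 0.05 are named, up to 4 per list, with Lama5 named beyond this rule. The labels do not say that mice were separate litters or processed apart, so p-values cover the spread of these 6 arrays alone, which may be technical. The number of arrays limits the precision. The limma script was tested on simulated data. Alternatives were scaling, filter, moderation, probe set averaging, the replicate number as a block and leaving out each array.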

Additional observations from a re-analysis of the deposited data

How the results depend on the processing

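For the 31 tested genes, 404 of 430 values under 14 alternatives kept their direction and their side of the adjusted threshold, and 22 genes kept their direction under all of them. Scaling each array on its 5' β-actin control moved the median of all tested genes from -0.10 to -0.75 and the calls from 5 higher and 1 lower to 82 higher and 1053 lower. This made 1135 calls over all probe sets, 9 among related genes and 7 among the matrix genes, all lower (22.6%, against 5.82% of all tested genes). The 7 log2 differences were -2.46 for Prg4, -2.09 for Ltbp1, -2.06 for Hspg2, -1.87 for Lamb1, -1.78 for Ltbp3, -1.73 for Dcn and -1.72 for Thbs2, and Pdia4 also passed at -1.71. That scaling left 1 matrix gene higher at an unadjusted p under 0.05. It gave class medians of -0.13 (matricellular), -1.33 (small proteoglycans), -0.77 (elastic fibre), -1.58 (basement membrane) and -1.24 (other matrix). It turned Tnc to -0.13, Eln to -0.045, Efemp1 to -0.30, Ltbp2 to -0.64, Nid2 to -0.39 and Vcan to -0.55. Dividing by that control, which had a higher mean in KO, shifted the log2 difference of every gene by the same amount. The genes that turned are those whose positive differences were smaller than that shift. The ratio of the 3' to the 5' β-actin probe set was 1.99, 1.51 and 1.52 on KO replicates 1, 2 and 3. On WT replicates 1, 2 and 3 it was 4.26, 1.66 and 2.70, so the 5' end alone was not an even measure across arrays. Why the control itself differed was not tested.

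Over all probe sets there were 0 calls with quantile normalization, no filter, Present calls on all 6 arrays or the replicate block, 1 with 75th percentile scaling and 27 with eBayes trend and robust. Without a filter 2 matrix genes were higher before adjustment. The Present filter on all 6 arrays, which tests fewer genes, gave an other matrix median of -0.79 and an elastic fibre median of 0.015. Genes near 0 changed sign. Fbln2 was 0.064 with 75th percentile scaling and 0.026 with quantile normalization, where Ltbp2 was -0.10. Leaving out 1 array gave -0.33 to 0.14 for Fbln2, -0.27 to 0.33 for Ltbp2, -0.35 to 0.0067 for Fbln1, -0.050 to 0.30 for Vcan, -0.51 to 0.037 for Has2, and 0 to 2 calls over all probe sets. It gave 0 matrix gene calls in each case, and 2 to 6 higher and 7 to 11 lower before adjustment. Class medians ran from 0.34 to 0.71 (matricellular), -0.94 to -0.064 (small proteoglycans), -0.32 to -0.047 (elastic fibre), -1.23 to -0.72 (basement membrane) and -0.78 to -0.51 (other matrix). The causes were not tested.

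Whether the replicate numbers pair the samples cannot be told from these values, since arrays of unlike number were not compared. Same-numbered arrays deviated from their group means with correlations of 0.16, 0.03 and -0.10 across probe sets, and with the replicate number as a block 0 matrix genes were called, with 4 higher and 11 lower before adjustment.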

Other observations

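Several of these genes are neighbours in the mouse genome, by the gene order of GRCm38.p6. Dcn and Lum are adjacent on chromosome 10, followed by Kera and Epyc, which also encode small leucine-rich proteoglycans. On the log2 scale Dcn differed by -1.08, Lum by -0.84 and Kera, the corneal proteoglycan keratocan, by -1.42, with 107, 84.1 and 8.4 in KO and 113, 117 and 111 in WT. Kera was Present on 1 of the 3 KO arrays, and its 8.4 lay below 13.4, the lowest Present signal on KO replicate 3. Without that array Kera had a log2 difference of -0.26, Lum -0.064 and Dcn -0.94. Lum overlapped between the groups. Epyc was not Present on enough arrays to be tested. On chromosome 13 Ecm2, Aspn, Omd and Ogn follow each other. There Aspn differed by -0.68, with 0.09 on its other probe set, and Ogn by -0.20. Ecm2 and Omd were not tested.

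The TGF-beta ligands that latent binding proteins hold in the matrix did not differ in 1 direction. Tgfb1 had 1039 ± 303 in KO and 587 ± 280 in WT (SD, n = 3 each), a log2 difference of 0.89 with overlap between the groups. Tgfb3 had 423 ± 129 in KO and 867 ± 257 in WT (SD, n = 3 each), a log2 difference of -1.05 with each KO array below each WT array. Tgfb2 had 0.34. By limma the lowest adjusted p of the 3 was 0.178.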
